A study of Mus musculus with 8 samples.

Results

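Keratins 4, 7, 8, 12, 13, 18, 19 and 20 are the keratins of simple epithelia, Merkel cells, mucosae and cornea, and their genes were followed here in mouse skin. The 8 genes were taken by symbol (Krt4, Krt7, Krt8, Krt12, Krt13, Krt18, Krt19 and Krt20) and each had 1 row in every library, out of 55418 genes in all and 53 genes with a keratin symbol. Whole-skin RNA was sequenced from mice called hairloss, which carry a spontaneous mutation whose gene the labels do not name, and from wildtype mice, at postnatal days 0, 16, 19 and 28. There was 1 library for each genotype and day, 8 libraries in all, and neither the strain, the body site nor the number of animals per library is given in the labels. The series title asks about keratins and keratin-associated proteins in these mutants. Values were read as FPKM, fragments scaled to transcript length and to the size of the library, although no header names a unit. On that reading levels of different genes can be set beside each other.

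Keratins are intermediate filament proteins that assemble as obligate pairs of a type II and a type I chain. Simple epithelia of glands and internal organs use Krt8 (type II) with Krt18 (type I), joined in many ducts by Krt7 (type II) and Krt19 (type I). In skin, Krt8, Krt18 and Krt20 (type I) are the classic keratins of Merkel cells, the touch receptor cells of the epidermis and touch domes, and Krt19 is known from the bulge of the hair follicle. Krt4 (type II) and Krt13 (type I) pair in the suprabasal layers of stratified mucosae such as mouth and oesophagus, and Krt12 (type I) is the keratin of corneal epithelium. The stratified epidermis itself is built from other keratins, among them Krt5 and Krt14 in its basal layer.

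In the libraries as a whole, the spacing of the lowest values gave an estimated depth of 31200000 to 44000000 fragments. For a transcript of 1 kb the level of 3 fragments was then 0.0682 to 0.0962 FPKM, a floor for counting error only. The labelled tissue was borne out by Krt5, at 697 to 2383 FPKM in hairloss and 573 to 1308 FPKM in wildtype libraries, and by Krt14, at 569 to 4829 and 399 to 1103 FPKM. The genotypes were not matched for sex at every day. Ddx3y, a Y-linked gene, was listed at 0 in the hairloss libraries of days 0 and 28 and stood at 15.8 to 20.4 FPKM in the other 6, while Xist, which marks cells with an inactive X chromosome, was at 76.1, 0.115 and 50.2 FPKM in hairloss skin of days 0, 19 and 28, beside 51.3, 12.4 and 0.166 FPKM in wildtype skin. Wildtype skin of days 0 and 19 thus held both RNAs, and hairloss skin of days 0 and 28 lacked Ddx3y. At day 28 hairloss skin had Xist without Ddx3y, and wildtype skin had Ddx3y with little Xist. Genotype and sex thus cannot be told apart at day 28. The part of sex in any difference was not tested. Col1a1 and Col3a1, collagens of the dermis, were listed at 0 in some libraries, which can be a failed estimate, but none of the 8 keratins was listed at 0 anywhere.

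The 8 genes lie in the 2 keratin clusters of the mouse genome (build mm10, spans from GENCODE M21). On chromosome 15, among the type II genes, are Krt7 (101411043 to 101430313, plus strand), Krt4 (101918535 to 101924735, minus strand) and Krt8 (101996698 to 102004482, minus strand), followed by the type I gene Krt18 (102028180 to 102032027, plus strand), which stands apart from the other type I genes close to its partner. On chromosome 11 are Krt12 (99415666 to 99422259), Krt20 (99428403 to 99438150), Krt13 (100117327 to 100121566) and Krt19 (100140810 to 100148665), all on the minus strand. Krt12 overlaps the antisense gene A830036E02Rik, Krt7 overlaps Gm671 and Krt8 overlaps Gm36026, and it is not stated whether the counting used strand, so reads of these pairs cannot be told apart. Gm671 and Gm36026 stayed below 0.1 FPKM in every library.

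Promoter sequence is shown for the 5 members with the largest single-day differences between the genotypes, with its entries taken from RefSeq (GRCm38.p6), which held 6 of the 8 genes. Each line gives the 250 bases before the annotated start, 5′ to 3′ on the strand of the gene. Capitals mark any match, on either strand, to the TATA box motif TATAAA, the CCAAT box (the motif CCAAT), the GC box motif GGGCGG, the AP-1 motif TGANTCA or the grainyhead motif AACCNGTT. The first 2 belong to genes whose own highest level was in newborn hairloss skin.
Krt12, chr11:99422260-99422509, minus strand: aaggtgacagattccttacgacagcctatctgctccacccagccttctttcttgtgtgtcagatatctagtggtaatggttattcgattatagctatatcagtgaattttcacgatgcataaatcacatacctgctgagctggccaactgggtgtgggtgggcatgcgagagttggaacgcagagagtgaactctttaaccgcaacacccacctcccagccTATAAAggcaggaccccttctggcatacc
Krt13, chr11:100121567-100121816, minus strand: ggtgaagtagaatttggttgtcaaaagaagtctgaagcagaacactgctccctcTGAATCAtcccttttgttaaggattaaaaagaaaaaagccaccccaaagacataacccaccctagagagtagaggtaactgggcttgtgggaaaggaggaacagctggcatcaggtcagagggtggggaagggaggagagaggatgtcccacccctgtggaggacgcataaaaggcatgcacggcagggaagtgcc
The next 3 belong to genes that were lower in hairloss than in wildtype skin at day 28.
Krt20, chr11:99438154-99438403, minus strand: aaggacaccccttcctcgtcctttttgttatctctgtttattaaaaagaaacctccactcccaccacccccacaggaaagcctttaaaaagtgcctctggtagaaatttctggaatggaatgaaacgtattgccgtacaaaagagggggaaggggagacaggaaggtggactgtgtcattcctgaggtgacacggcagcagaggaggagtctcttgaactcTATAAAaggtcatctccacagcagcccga
Krt18, chr15:102027966-102028215, plus strand: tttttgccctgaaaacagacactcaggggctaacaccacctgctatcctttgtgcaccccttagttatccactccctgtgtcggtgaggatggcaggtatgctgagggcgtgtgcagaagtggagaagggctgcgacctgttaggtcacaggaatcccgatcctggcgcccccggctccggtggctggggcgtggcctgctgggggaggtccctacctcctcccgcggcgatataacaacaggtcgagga
Krt8, chr15:102004343-102004592, minus strand: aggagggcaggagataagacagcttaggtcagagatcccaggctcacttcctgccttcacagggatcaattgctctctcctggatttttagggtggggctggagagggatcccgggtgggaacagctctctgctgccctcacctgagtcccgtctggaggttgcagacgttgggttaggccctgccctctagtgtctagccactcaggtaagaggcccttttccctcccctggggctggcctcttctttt
Krt12 and Krt20 each held a TATAAA match that begins 29 bases before the start, a motif present in 12.4% of the 32851 windows of the same length. Krt13 held a TGANTCA match, present in 6.75% of windows, that begins 196 bases before the start, and a second RefSeq start of Krt13 had 2 more. Krt18 held none of the 5 motifs, and neither did Krt8. Krt7 held GGGCGG 4 times, a motif present in 32.7% of windows. The CCAAT motif, in 33.8% of windows, was found among the members only at the second start of Krt13, and AACCNGTT, in 1.79%, at none of them. These matches describe the letters of the windows alone.

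As a set the 8 keratins were a minor part of the keratin FPKM of skin, though Krt12 reached 39.6 FPKM in newborn hairloss skin. Their summed level was 47.1, 8.98, 5.71 and 3.23 FPKM in hairloss libraries at days 0, 16, 19 and 28, and 10.5, 15.1, 4.58 and 14.0 FPKM in wildtype libraries. As a share of the FPKM of all 53 keratin genes this was 0.511%, 0.0379%, 0.0286% and 0.0272% in hairloss skin, and 0.175%, 0.0730%, 0.0745% and 0.0894% in wildtype skin. The hairloss share was thus above the wildtype share at day 0 and below it at the 3 later days. At day 19 the summed level of the 8 was nevertheless higher in hairloss skin. All 53 keratin genes summed there to 19970 FPKM in hairloss against 6155 FPKM in wildtype skin. The highest of the 8 at day 0 was Krt12, which made up 84.0% of the sum in hairloss and 32.1% in wildtype skin. Without Krt12 the sums at day 0 were 7.54 FPKM in hairloss and 7.16 FPKM in wildtype skin. Of the 64 values, 4 lay under the level of 3 fragments, 2 of Krt12 and 2 of Krt13.

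**Figure D1:**
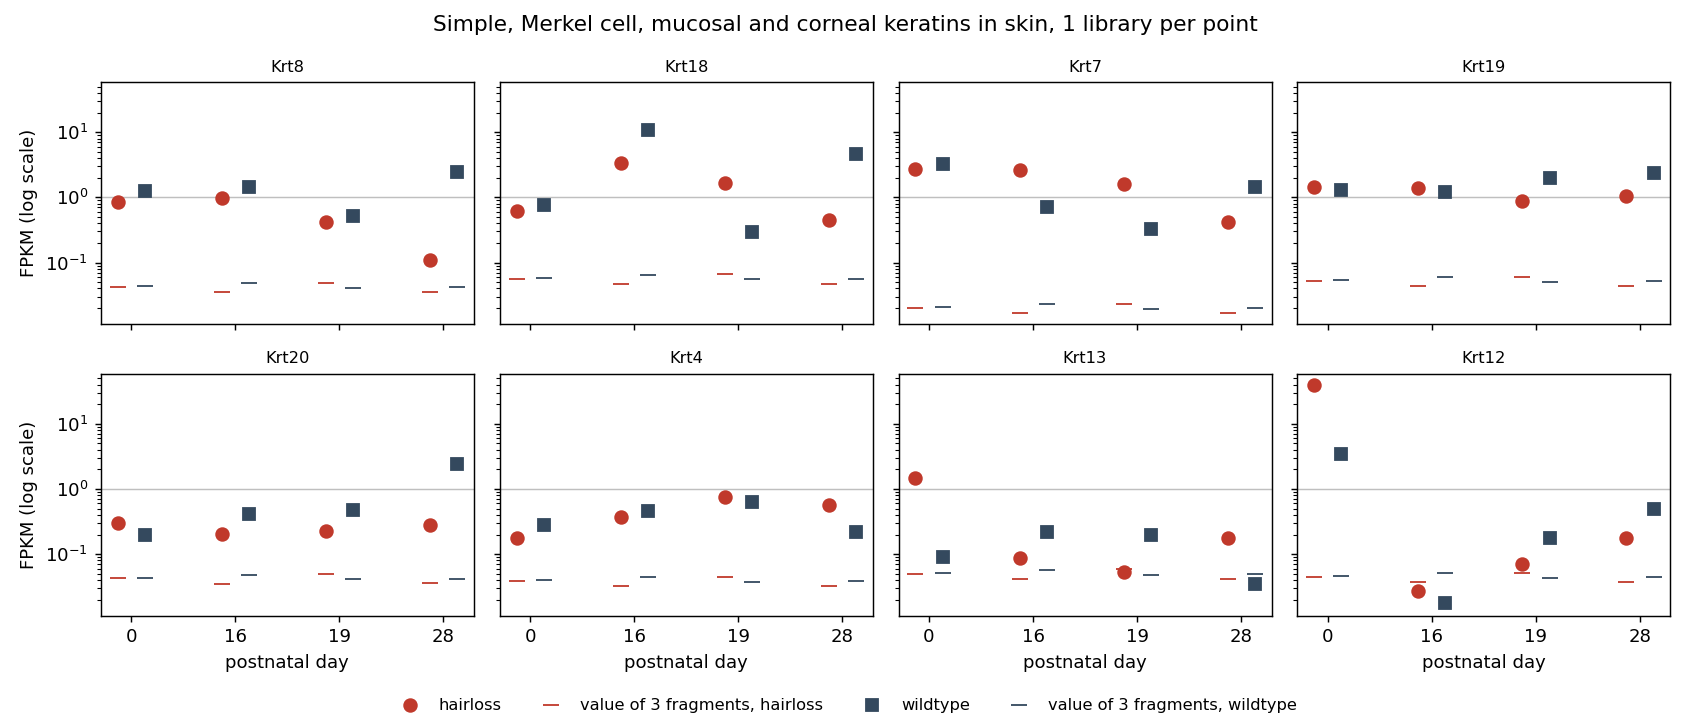
FPKM of each of the 8 keratins (vertical axis, log scale) by postnatal day, with 1 hairloss library (circle) and 1 wildtype library (square) per day, no error bars because no group was replicated, dashes at the level of 3 fragments and a grey line at 1 FPKM. Krt12 reaches 39.6 FPKM in hairloss skin at day 0, Krt18 reaches 10.7 FPKM in wildtype skin at day 16, and Krt4 stays below 1 FPKM throughout.

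The genotypes were compared at each day by size alone, with no test, since each group is 1 library. A gene counted as different when it was at least 2-fold apart on the log2(FPKM + 1) scale, which narrows the differences of low genes such as these, and reached at least 1 FPKM in either library. At day 0, Krt12 and Krt13 were higher and 0 of the 8 lower in hairloss skin, where 1.49% of the 16685 genes compared were higher and 1.58% lower. At day 16, Krt7 was higher and Krt18 lower, where 5.34% of genes were higher and 7.39% lower. At day 19, Krt18 was higher and 0 were lower, where 6.53% of genes were higher and 5.76% lower. At day 28, Krt8, Krt18 and Krt20 were lower and 0 were higher, where 6.42% of genes were lower and 5.6% higher. The members that reached 1 FPKM in either library, and so could count, numbered 5, 4, 3 and 5 at days 0, 16, 19 and 28. The median difference of those members was 0.08, -0.09, 0.98 and -1.41, beside medians of all genes compared, by the same filter, of -0.01, -0.08, 0.00 and 0.00. At day 19 Krt7 and Krt18 reached 1 FPKM only in hairloss skin, and at day 28 Krt7, Krt8, Krt18 and Krt20 only in wildtype skin. For members this near the minimum, the filter thus bears on the sign of the median. With the members under 1 FPKM included, the median of all 8 was -0.02, -0.12, -0.12 and -0.75, of opposite sign at days 0 and 19. In whole skin, fewer cells of a type and less RNA per cell cannot be told apart.

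**Figure D2:**
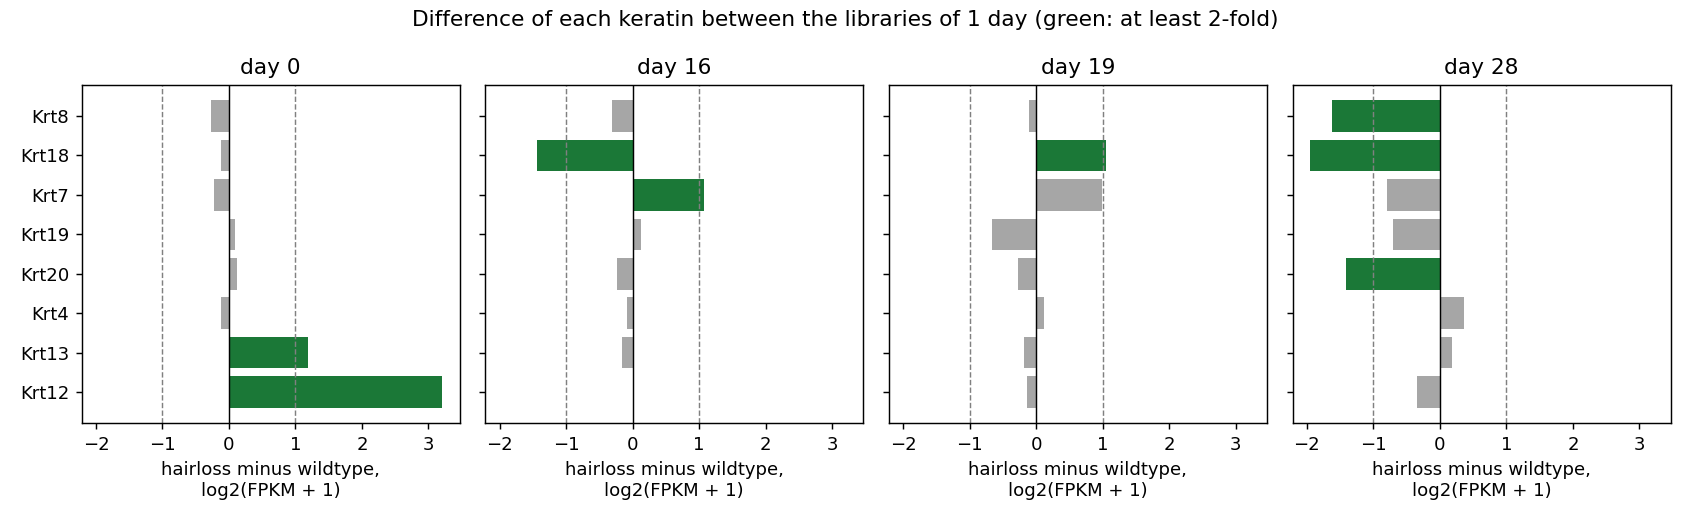
Difference of each keratin between the hairloss and the wildtype library of 1 day (horizontal axis, hairloss minus wildtype in log2(FPKM + 1)), with dashed lines at 2-fold and green bars for those at least 2-fold apart and at 1 FPKM or more in either library. Krt12 and Krt13 stand to the right at day 0, Krt18 lies left, right and left of 0 at days 16, 19 and 28, and Krt8 and Krt20 join it on the left at day 28.

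Krt18, the type I chain of simple epithelia, had the widest swings of the simple keratins. It stood at 0.610, 3.32, 1.69 and 0.448 FPKM in hairloss libraries at days 0, 16, 19 and 28, against 0.754, 10.7, 0.296 and 4.61 FPKM in wildtype libraries. Wildtype skin was thus high at days 16 and 28 and low at days 0 and 19, while hairloss skin was highest at day 16, lower at day 19 and lowest at day 28. The difference, hairloss minus wildtype on the log2(FPKM + 1) scale, was -0.12, -1.44, 1.06 and -1.96 in the same order of days. The lowest wildtype value, that of day 19, corresponds to about 16 fragments and the highest, that of day 16, to about 493, so the low days were measured with fewer fragments but above the floor.

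Krt8, the type II partner of Krt18, was the only one of the 8 that was lower in the hairloss library at 4 of 4 days. It stood at 0.849, 0.971, 0.415 and 0.111 FPKM in hairloss mice, against 1.24, 1.43, 0.525 and 2.42 FPKM in wildtype skin at days 0, 16, 19 and 28. The genotypes were close at the first 3 days and 21.8-fold apart in FPKM at day 28, the hairloss value there resting on about 10 fragments and the wildtype value on about 175. On the log2(FPKM + 1) scale the differences were -0.28, -0.30, -0.11 and -1.62. Averaged over days in limma, which fits all genes together with day as a block, Krt8 differed by -0.58 ± 0.29 (SE, 4 days; limma adjusted p = 0.427), which did not pass the threshold of 0.05.

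The partners did not keep a constant ratio. Krt18 relative to Krt8 was 0.718, 3.41, 4.08 and 4.04 in hairloss skin at days 0, 16, 19 and 28, and 0.609, 7.46, 0.563 and 1.91 in wildtype skin. Krt8 was thus the higher of the pair in both newborn libraries and in wildtype skin at day 19, and Krt18 in the other 5. The ratio at day 19 was set by Krt18, as Krt8 was 0.415 FPKM in hairloss and 0.525 FPKM in wildtype skin there. Over the 8 libraries the log2(FPKM + 1) values of Krt8 and Krt18 had a Pearson r of 0.65, given as a description over libraries that share days and genotypes.

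**Figure D3:**
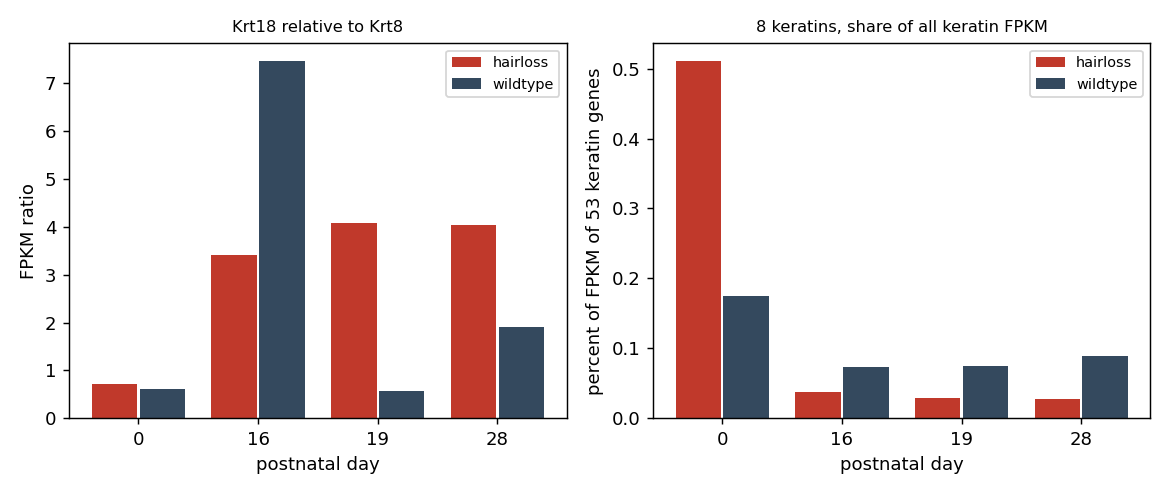
Left, FPKM of Krt18 divided by FPKM of Krt8, and right, FPKM of the 8 keratins as a percentage of the FPKM of all 53 keratin genes, in the hairloss and the wildtype library of each postnatal day, with 1 library per bar and no error. The ratio is 7.46 in wildtype skin at day 16 and 0.563 at day 19, while hairloss skin stays between 3.41 and 4.08 from day 16 to day 28, and the share is largest, 0.511%, in hairloss skin at day 0.

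The 3 coding genes whose log2(FPKM + 1) profile over the 8 libraries was most like that of Krt18, among 5088 searched, were Usp38, a deubiquitinase (r = 0.994), Kcne1, a potassium channel subunit (r = 0.993), and Sytl2, a vesicle transport protein (r = 0.993). Kcne1 stood at 0.517, 3.96, 1.72 and 0.0619 FPKM in hairloss mice at days 0, 16, 19 and 28, and at 0.432, 24.1, 0.288 and 7.93 FPKM in wildtype skin. Usp38 had the same order of the days over a smaller span, at 12.1, 15.8, 14.3 and 11.9 FPKM in hairloss and 12.3, 24.3, 11.0 and 18.5 FPKM in wildtype skin. The same alternation was present in Elf5 and Crnn of the marker lists, singled out after their values were seen, and in the hair shaft keratin Krt31. Elf5, a transcription factor used here as a gland marker, stood at 0.282, 7.67, 3.69 and 0.950 FPKM in hairloss and 0.555, 28.3, 1.17 and 25.3 FPKM in wildtype skin. Crnn, cornulin, used here as a marker of oral epithelium, stood at 7.14, 106, 31.4 and 3.46 FPKM in hairloss and 5.88, 371, 2.87 and 240 FPKM in wildtype skin. Krt31 stood at 0.425, 80.7, 33.3 and 0.0273 FPKM in hairloss and 1.74, 313, 0.915 and 343 FPKM in wildtype skin. Its levels thus lay on the same side of wildtype as those of Krt18 at every day, and the part of hair growth in the Krt18 values was not tested.

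**Figure D4:**
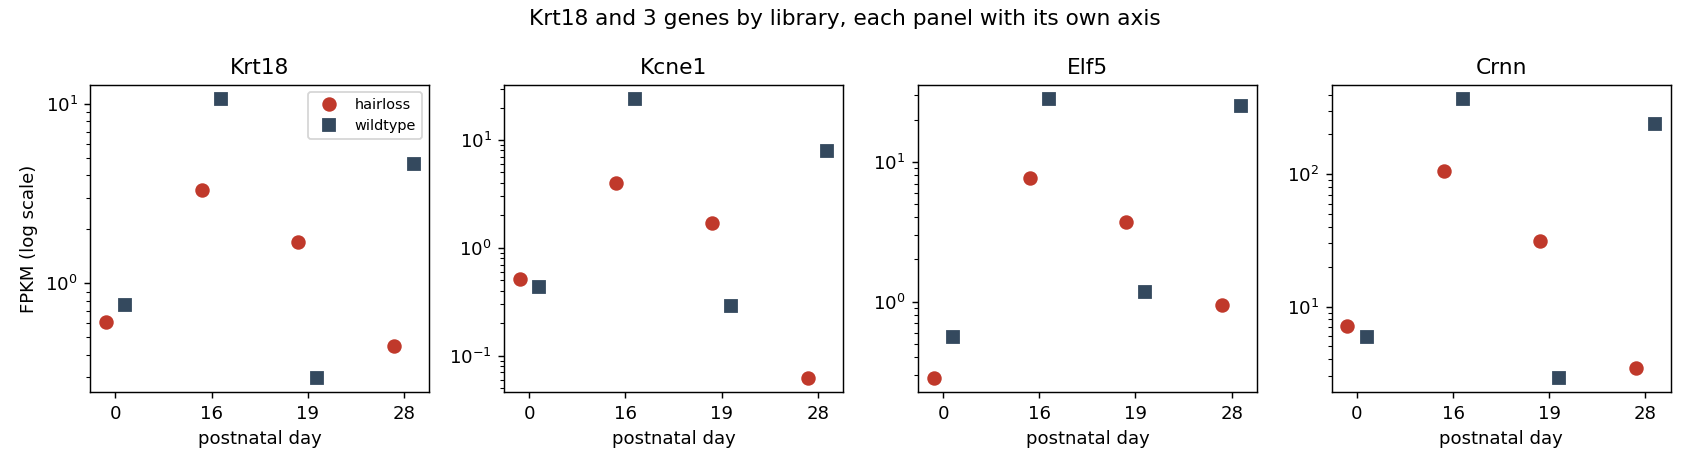
FPKM (log scale, each panel with its own axis) of Krt18, Kcne1, Elf5 and Crnn by postnatal day, with 1 hairloss library (circle) and 1 wildtype library (square) per day and no error. In all 4 panels the hairloss library lies below the wildtype library at days 16 and 28 and above it at day 19.

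Krt7, the type II keratin of ducts and glands, had an order of its own. It stood at 2.68, 2.60, 1.61 and 0.422 FPKM in hairloss mice at days 0, 16, 19 and 28, against 3.30, 0.708, 0.323 and 1.46 FPKM in wildtype skin. Both genotypes were high at birth, hairloss skin was above wildtype at days 16 and 19, and it was below at day 28. The differences on the log2(FPKM + 1) scale were -0.22, 1.08, 0.98 and -0.79, so day 16 lay just past 2-fold and day 19 just short of it. Krt7 has 5 annotated transcripts, so its FPKM depends on the transcripts assumed. Among the genes most like it over the 8 libraries were S1pr3, a sphingosine 1-phosphate receptor (r = 0.932), and Camp, the cathelicidin antimicrobial peptide (r = 0.919). Camp stood at 6.15, 2.54, 1.44 and 0.653 FPKM in hairloss mice, against 7.53, 0.110, 0 and 0.881 FPKM in wildtype skin.

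Krt19, a type I keratin of ducts and of the follicle bulge, varied least. It stood at 1.43, 1.40, 0.870 and 1.05 FPKM in hairloss mice at days 0, 16, 19 and 28, against 1.29, 1.20, 1.95 and 2.35 FPKM in wildtype skin. The highest of the 8 libraries was 2.70 times the lowest, compared with 10.2 times for Krt7 and 36.1 times for Krt18. The genotypes lay close together at days 0 and 16, and hairloss skin was below wildtype at days 19 and 28, with differences of -0.66 and -0.71 on the log2(FPKM + 1) scale, short of 2-fold. In the list of bulge markers, 3 of 9 were at least 2-fold lower in hairloss skin at day 19, namely Cd34 at 48.2 against 167 FPKM, Krt15 at 212 against 1018 FPKM and Fgf18 at 0.583 against 3.07 FPKM. Of all genes compared at day 19, 5.76% were lower. At day 28, 1 of the 8 bulge markers that could be compared was higher and 0 lower, beside 5.6% and 6.42% of all genes. At days 0 and 16 none of the list was past 2-fold. Lgr5, a receptor of follicle stem cells, stood at 14.6 and 10.0 FPKM at day 19. The summed level of the list was 361 to 551 FPKM in hairloss and 323 to 1282 FPKM in wildtype libraries, and its part in the Krt19 values was not tested. The genes most like Krt19 were Krtcap2 (r = 0.912), Tesc (r = 0.907) and Adgrd1 (r = 0.896).

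Krt20, the type I keratin most closely tied to Merkel cells in skin, was high in a single library. It stood at 0.298, 0.206, 0.226 and 0.276 FPKM in hairloss mice at days 0, 16, 19 and 28, against 0.194, 0.412, 0.481 and 2.38 FPKM in wildtype skin. The 4 hairloss libraries thus lay within a narrow band, and the wildtype library of day 28 was 4.96 times the next highest. The difference at day 28 was -1.41 on the log2(FPKM + 1) scale, with about 23 fragments in hairloss and about 170 in wildtype skin. That wildtype library was also the highest of the 8 for Krt8 and Krt19 and the second highest for Krt18.

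The genes most like Krt20 over the 8 libraries were Gal, the neuropeptide galanin (r = 0.977), Defb8, a beta-defensin (r = 0.976), and Selenbp1, a selenium-binding protein (r = 0.970). Defb8 was listed at 0 in 7 libraries and stood at 52.2 FPKM in wildtype skin at day 28. Gal stood at 0.0415 FPKM in hairloss and 6.48 FPKM in wildtype skin at day 28 and below 0.1 FPKM in the other 6 libraries. Selenbp1 stood at 11.3 and 94.5 FPKM at day 28. A correlation of this kind rests on the 1 library in which all these genes were high.

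Few other markers of Merkel cells could be compared at day 28, when Krt8, Krt18 and Krt20 were lower in hairloss skin. Of 12 Merkel cell genes, 3 reached 1 FPKM in either library at day 28. Of these, 2 were at least 2-fold higher and 0 lower in hairloss skin, beside 5.6% and 6.42% of all genes compared. The 2 were Piezo2, the touch-sensing ion channel, at 3.32 against 1.05 FPKM, and Chga, chromogranin A, at 1.35 against 0.0898 FPKM. Chga reached 1 FPKM only in hairloss skin, and Krt8, Krt18 and Krt20 only in wildtype skin. The minimum level thus bears on the direction in which such low genes could count. The summed level of the list was 9.02 FPKM in hairloss and 4.07 FPKM in wildtype skin at day 28, and 7.24 to 17.2 FPKM in hairloss and 4.07 to 16.7 FPKM in wildtype libraries over all days, and its part in the values of the 3 keratins was not tested. At days 0, 16 and 19, when 5, 3 and 3 could be compared, none was past 2-fold. Atoh1, the factor that specifies Merkel cells, was at or near 0 in every library, at 0.0320 FPKM in hairloss and 0 in wildtype skin at day 28. Sox2 (0.451 and 0.199 FPKM at day 28) and Isl1 (0.411 and 0.333 FPKM) are other factors of these cells. Piezo2 is also made by sensory and other cells.

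Krt8, which lies next to Krt18, had as its most similar genes Magi3, a junctional scaffold protein (r = 0.949), Tspan6, a tetraspanin (r = 0.922), and Slc6a13, a GABA transporter (r = 0.919). Slc6a13 stood at 1.56, 1.93, 1.07 and 0.161 FPKM in hairloss mice at days 0, 16, 19 and 28, and at 1.37, 6.67, 0.951 and 12.0 FPKM in wildtype skin. Among 14 genes of simple and glandular epithelia, 11 could be compared at day 28. Of these, 4 were at least 2-fold lower and 1 higher in hairloss skin, beside 6.42% and 5.6% of all genes compared. The median difference of the 11 was -0.21, beside 0.00 for all genes. The claudin genes Cldn3 and Cldn4, for proteins of tight junctions, stood at 0.702 against 9.21 FPKM and at 14.2 against 77.0 FPKM, and Cldn8 at 2.08 against 11.2 FPKM. Ehf, an epithelial transcription factor, was the higher one, at 19.7 against 8.85 FPKM. Epcam, a cell adhesion protein of simple epithelia, stood at 60.2 and 63.5 FPKM. The genes of the list compared at days 0, 16 and 19 numbered 10, 12 and 12. At day 0 none was past 2-fold, at day 16 there were 1 higher and 2 lower, and at day 19 there were 3 higher and 0 lower. Of all genes compared, 1.49%, 5.34% and 6.53% were higher and 1.58%, 7.39% and 5.76% lower at these days. Elf3, a factor of epithelial differentiation, stood at 5.19 against 0.276 FPKM at day 16 and 3.58 against 0.173 FPKM at day 19.

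Markers of glands were mixed. Of 12 genes of sweat and mammary gland, 2, 4, 5 and 3 reached 1 FPKM in either library at days 0, 16, 19 and 28. Of these, 0, 1, 2 and 0 were higher and 0, 1, 3 and 1 lower. Of all genes compared, 1.49%, 5.34%, 6.53% and 5.6% were higher and 1.58%, 7.39%, 5.76% and 6.42% lower at those days. Aqp5, the water channel of sweat glands, stood at 0.111 to 0.457 FPKM in hairloss and 0.211 to 1.35 FPKM in wildtype libraries. The summed level of the list was 7.13 to 16.6 FPKM in hairloss and 8.06 to 39.5 FPKM in wildtype libraries. Prlr, the prolactin receptor, stood at 4.18 against 13.5 FPKM at day 19. Of 10 genes of the sebaceous gland and its duct, 9, 10, 10 and 10 could be compared at days 0, 16, 19 and 28. The numbers higher and lower were 0 and 0, 2 and 3, 3 and 3, and 3 and 2. The shares of all genes higher and lower at each day are those given above. Krt79, a keratin of the sebaceous duct, stood at 1212 against 215 FPKM at day 16, and Mc5r, a melanocortin receptor of sebocytes, at 0.947 against 6.21 FPKM at day 28. Of 6 intestinal and urothelial genes 0, 1, 0 and 0 reached 1 FPKM in either library at days 0, 16, 19 and 28 and the 1 lay within 2-fold. Cdx2 was listed at 0 in every library, and the summed level was 0.325 to 1.02 FPKM in hairloss and 0.498 to 1.69 FPKM in wildtype libraries.

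Krt12, the corneal keratin, had the largest value of the 8 and belonged to newborn skin. It stood at 39.6 FPKM in hairloss and 3.39 FPKM in wildtype skin at day 0, a difference of 3.21 on the log2(FPKM + 1) scale and 11.7-fold in FPKM, from about 2691 and 224 fragments. At the later days it was low in both genotypes, at 0.0270, 0.0696 and 0.176 FPKM in hairloss mice at days 16, 19 and 28, and at 0.0178, 0.174 and 0.489 FPKM in wildtype skin. The 2 newborn libraries were thus the 2 highest of the 8, and both day 16 values lay under the level of 3 fragments. In hairloss skin at day 0 Krt12 ranked 12th from the top among the 53 keratin genes. The overlapping antisense gene A830036E02Rik stood at 0.297 FPKM in hairloss and 0.370 FPKM in wildtype skin at day 0 and at 2.27 FPKM in wildtype skin at day 19, so it did not follow Krt12.

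Krt13, the type I keratin of mucosae, shared the newborn hairloss library. It stood at 1.50, 0.0868, 0.0531 and 0.175 FPKM in hairloss mice at days 0, 16, 19 and 28, against 0.0918, 0.216, 0.194 and 0.0345 FPKM in wildtype skin. The hairloss value of day 0, from about 91 fragments, was 6.93 times the next highest library, and the other 7 values rest on about 2 to 13 fragments each. The day 0 difference was 1.19 on the log2(FPKM + 1) scale. Its partner Krt4 was not high there. Krt4 stood at 0.175, 0.375, 0.765 and 0.573 FPKM in hairloss mice, against 0.282, 0.455, 0.636 and 0.217 FPKM in wildtype skin, so it never reached 1 FPKM and could not be called at any day. Its highest values in both genotypes were those of day 19.

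Few other markers of cornea and mucosa were high enough to be compared at day 0. Of 3 corneal markers only Kera reached 1 FPKM in either library at day 0, and it lay within 2-fold. Pax6, the master regulator of the eye, stood at 0.126 FPKM in hairloss and 0.261 FPKM in wildtype skin, Aldh3a1, an aldehyde dehydrogenase abundant in cornea, at 0.694 and 0.551 FPKM, and Kera, keratocan of the corneal stroma, at 0.422 and 1.08 FPKM. The summed level of these 3 was 1.24 to 136 FPKM in hairloss and 1.89 to 71.5 FPKM in wildtype libraries. After day 0 it was nearly all Aldh3a1, which stood at 130 against 11.1 FPKM at day 28, when Krt12 was low. Of the 3, 2 could be compared at each of days 16, 19 and 28. Aldh3a1 was higher at day 16, Kera lower at day 19, and both higher at day 28. Of all genes compared, 5.34%, 6.53% and 5.6% were higher and 7.39%, 5.76% and 6.42% lower at these days. Of 6 markers of oral and oesophageal epithelium 3 could be compared at day 0 and none of these was past 2-fold. Crnn stood at 7.14 and 5.88 FPKM there, and Mal, a membrane protein of mucosal epithelium, at 2.52 and 2.33 FPKM. The numbers of these compared at days 16, 19 and 28 were 2, 3 and 3. Only Crnn of the 6 was past 2-fold at these days, lower at day 16, higher at day 19 and lower at day 28. The shares of all genes are those given above for the same days. The summed level of the 6 ran from 9.17 to 110 FPKM in hairloss and 12.0 to 378 FPKM in wildtype libraries.

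The genes most like Krt12 over the 8 libraries were Ugdh, an enzyme of hyaluronan precursor synthesis (r = 0.959), Irf4, a transcription factor best known from lymphocytes (r = 0.937), and Prepl (r = 0.933). Ugdh stood at 55.8 FPKM in hairloss and 36.5 FPKM in wildtype skin at day 0 and between 16.6 and 22.2 FPKM in the other 6 libraries. Irf4 stood at 13.9 and 4.02 FPKM at day 0 and between 1.28 and 3.68 FPKM in the other 6. For Krt13 they were Krt12 (r = 0.886), Zscan2 (r = 0.873) and Irf4 (r = 0.846). Both profiles are led by the newborn hairloss library.

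No member passed a test over the whole series. Krt4 was below the filter of 1 FPKM and entered the fit without that filter, where its limma adjusted p was 1 in each comparison. For the genotype difference over days with limma, 7 of the 8 were tested and 0 passed after Benjamini-Hochberg adjustment over 18724 genes, where 0.0267% of genes passed as higher and 0.0107% as lower. At an unadjusted p under 0.05 there were 0 of the 7, beside 2511 of the 18724 genes. The mean differences were 0.69 ± 0.67 for Krt12 (SE, 4 days; limma adjusted p = 0.641), -0.62 ± 0.53 for Krt18 (limma adjusted p = 0.600), -0.45 ± 0.28 for Krt20 (limma adjusted p = 0.496), -0.29 ± 0.21 for Krt19, 0.26 ± 0.36 for Krt7 and 0.26 ± 0.28 for Krt13. The 4 days are the only repeats, so this spread also holds any change of the difference with age, and p-values measure only the spread between these libraries.

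Steps between days were tested in the same fit with genotype as a block. From day 0 to day 16, 0 of 7 passed, where 3.58% of genes passed as higher and 4.42% as lower. An unadjusted p under 0.05 was reached by 2 of the 7, beside 6260 of the 18724 genes. These were Krt12, with a step of -3.71 ± 0.95 (SE, 2 genotypes; limma adjusted p = 0.0726), and Krt18, with a step of 2.08 ± 0.74 (limma adjusted p = 0.125). With a pseudocount of 0.1 the Krt12 step was -6.59 and passed, with a limma adjusted p of 0.0403, and its adjusted p ran from 0.0403 to 0.847 over the alternatives. The counts over all genes for this step were 670 higher and 827 lower, and 583 and 1691 when libraries were scaled without keratins and keratin-associated proteins, which moved the median of all genes to -0.23 from -0.05. From day 16 to day 19, 0 of 7 passed, where 0.00534% of genes passed as higher and 0.0107% as lower, and Krt18 was the 1 member with an unadjusted p under 0.05, beside 975 of the 18724 genes, at -1.93 ± 0.74 (limma adjusted p = 0.673). From day 19 to day 28, 0 of 7 passed and 0 had an unadjusted p under 0.05, where 0 of 18724 genes passed and 1910 had an unadjusted p under 0.05.

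The keratins of epidermis, outer root sheath and wounds were more often higher than lower in hairloss skin. Of 19 such genes, 15, 15, 16 and 16 could be compared at days 0, 16, 19 and 28. Of these 3, 8, 9 and 7 were at least 2-fold higher, and 0, 3, 4 and 2 at least 2-fold lower. Of all genes compared, 1.49%, 5.34%, 6.53% and 5.6% were higher and 1.58%, 7.39%, 5.76% and 6.42% lower. The median differences of the list were 0.46, 1.09, 1.48 and 0.68, beside -0.01, -0.08, 0.00 and 0.00 for all genes compared. Krt1, of the suprabasal layers, stood at 2623 against 82.1 FPKM at day 28, beside 0.111 against 2.42 FPKM for Krt8. Krt77 was an exception at day 19, at 10.9 against 1109 FPKM. Of 10 genes for desmosome and keratin linker proteins, none was past 2-fold at days 0, 16 and 28, and 3 were higher at day 19. Dsp, desmoplakin, which anchors keratin filaments at desmosomes, stood at 345 and 367 FPKM at day 28, and Pkp2, the plakophilin of simple epithelia, at 1.37 and 3.48 FPKM, short of 2-fold on the log2(FPKM + 1) scale. Of 6 markers of basal keratinocytes, all compared at each day, 0, 1, 2 and 4 were higher at days 0, 16, 19 and 28 and none was lower. Krt5 and Krt14 are in this list and in that of the 19 keratins, so the 2 sets of counts are not separate.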

How the data were processed

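The authors deposited 1 value per Ensembl gene for each of 8 libraries of mouse skin. No header names a unit, and the deposited values were read as FPKM because they are not whole, have unequal totals (1080980 to 2501650) and come with Cuffdiff named in the submitters' processing notes. RNA came from RNeasy columns and libraries from TruSeq kits, per the labels' protocols, and per the submitters' processing notes cutadapt, Cuffdiff and build mm10 were used, with no versions. Of the aligner, the annotation, strand and any scaling between libraries, nothing is given in the sources used here. Symbols came from the files, and from GENCODE M21 for genes without one. Depth was estimated from genes with 1 transcript of over 1000 bases, as the depth at which most genes hold the value of 1 fragment, and fragments per gene are estimates from the longest transcript. Differences are on the log2(FPKM + 1) scale, hairloss minus wildtype.

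The day contrasts have 1 library per group and no test. For the rest limma 3.58.1 (R 4.3.3; robust eBayes with a trend) was fitted with genotype and day as terms to the 18724 genes that reach 1 FPKM in any library, which leaves 3 residual degrees of freedom. It was tested on simulated data, in which only genes of higher level were shifted, by the same amount at all days. That does not show how well the fit finds changes in low genes such as the members. Tests were two-sided with a Benjamini-Hochberg threshold of 0.05. Other steps used Python 3.11.15. The members and the 11 gene lists (9 of cell type markers) were chosen with earlier results of these data known. Named were all members, the first 3 genes of each list and its 4 with the largest mean difference, and the 3 coding genes with the highest Pearson r with each member, among genes that reach 5 FPKM and span at least 1 on the log2 scale; Ddx3y, Xist, Col1a1, Col3a1, Krt5, Krt14, Krt31 and overlapping genes were added. Some genes that meet the rule are not reported here. Alternatives were other pseudocounts, filters and scalings, leaving out each day, and leaving out suspected failed estimates.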

Additional observations from a re-analysis of the deposited data

Results flagged for a closer look

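Krt18 differed between the genotypes in opposite directions at different days. The hairloss minus wildtype difference on the log2(FPKM + 1) scale was -1.44 at day 16 and -1.96 at day 28, lower in hairloss skin, but 1.06 at day 19, higher in hairloss skin. Each value rests on 1 library per genotype, and the difference between days was not tested.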

How the results depend on the processing

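Counts of members moved with the pseudocount and the minimum level. With a pseudocount of 5, 1 member was higher at day 0 (Krt12), 0 were higher and 0 lower at day 16, 0 were higher at day 19 and 0 lower at day 28. With a minimum of 5 FPKM, 1 was higher at day 0 (Krt12), 0 higher at day 16, 0 higher at day 19 and 0 lower at day 28. With this minimum Krt18 still counted as lower at day 16, the 1 member lower there. With a pseudocount of 0.1, 2 were higher and 1 lower at day 19, as Krt7 reached 2.02 and Krt19 -1.08, and 5 were lower at day 28, as Krt19 reached -1.09 and Krt7 -1.58. Of 128 recomputed differences of single members, including those too low to count, 117 kept their side of 2-fold. With a pseudocount of 5, 7 fell short of 2-fold, which left only Krt12 at day 0 past it, and with one of 0.1, 4 came past it. No difference past 2-fold changed sign, and neither way of scaling libraries moved one across 2-fold. Scaling without keratins and keratin-associated proteins moved the median of all genes to 0.10 at day 28 from 0.00. Of 137 recomputed tests of members 136 kept their side of the threshold, all of them not passing, the exception being the Krt12 step from day 0 to day 16.

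Counts over all genes also depended on these choices. With a pseudocount of 0.1, 383 genes were higher and 500 lower at day 0, 2263 lower at day 16, 1554 lower at day 19 and 1424 higher at day 28. With one of 5, the numbers higher and lower were 102 and 111, 371 and 527, 533 and 370, and 401 and 567 at days 0, 16, 19 and 28. For the genotype test, 0 genes were higher and 0 lower with no filter on low values or without suspected failed estimates. Leaving out each day in turn gave 1 to 6 higher and 0 to 2 lower, fits with fewer libraries. For the step to day 16, no filter gave 3 higher and 69 lower, and scaling without keratins gave 1691 lower. For the step to day 19, no filter gave 10 higher and 0 lower, while scaling without keratins and leaving out suspected failed estimates each gave 0 higher. For the step to day 28, a pseudocount of 0.1 gave 2 higher and 3 lower, and no filter gave 10 lower. Except where said, the cause was not tested. Libraries were paired by day in the genotype test, and the labels give no replicate numbers for a further block. Depth limits Krt13 and the later days of Krt12, where values rest on few fragments.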
